A study of Oryza sativa Japonica Group with 6 samples.

Results

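The Aux/IAA family of rice (Oryza sativa Japonica group) was followed by RNA-seq in root tips of wild type and plt345 seedlings. Its members were taken as the 31 loci numbered IAA1 to IAA31 in rice nomenclature, whatever their values. Of these, 28 were found among the 31010 genes of the table, and 27 averaged 10 or more normalized counts over the 6 libraries and so entered the test, which covered 23166 genes in all. IAA5 (LOC_Os01g48450), IAA28 (LOC_Os11g11420) and IAA29 (LOC_Os11g11430) were not analysed here, and IAA22 (LOC_Os06g24850) was too low to test.

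Aux/IAA proteins are short-lived nuclear repressors of the auxin response. They bind auxin response factors (ARFs) through a shared interaction domain and bring in corepressors of the TOPLESS type. Auxin joins the Aux/IAA degron to F-box receptors of the TIR1/AFB type, the repressor is degraded, and the ARF is freed. Many Aux/IAA genes are themselves switched on by auxin, which closes a feedback loop. In rice, mutations that stabilise single members are known for their effects on lateral roots, crown roots and gravitropism.

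Wild type was the cultivar Zhonghua 11 (ZH11), and plt345 was a triple mutant of PLT3, PLT4 and PLT5, transcription factor genes of the PLETHORA family that act in root meristems. Both were untreated, and root tips of about 0.8 cm were taken from 7-day seedlings grown on Murashige and Skoog medium. Each genotype had 3 libraries. The labels give neither the kind of mutation nor the number of mutant lines, and nothing in them says that each library had its own batch of plants. The p-values therefore refer to differences among these 6 libraries, which may be technical in part. A root tip of this length holds both dividing and maturing cells, and in such bulk samples fewer cells of a type and less RNA per cell cannot be told apart.

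The libraries held between 20759896 and 21309371 reads on genes. The loci known in rice nomenclature as PLT3, PLT4 and PLT5 kept their transcripts in plt345, at 576.4 ± 19.8, 231.4 ± 13.0 and 1268 ± 9.02 normalized counts (SD, n = 3), against 579.5 ± 5.92, 269.8 ± 19.8 and 531.2 ± 28.9 in wild type. These levels do not check the genotype, since a mutated gene can keep its transcript. The 4 root tip markers QHB, PIN2, SCR1 and SHR1 were all detected. QHB and SCR1 were higher in plt345 and PIN2 was lower. Mean levels went from 22.5 in wild type to 103.3 for QHB, and from 4755 to 3182 for PIN2. The call of SCR1 was lost in DESeq2 and in the authors' own values (adjusted p = 0.0685 in both). SHR1 did not pass as deposited but did when scaled by library totals (limma adjusted p = 0.0194). Summed levels of the 4 markers were 3747 to 3886 against 5210 to 5282 in wild type, and most of each sum was PIN2. Of 3 shoot markers, CAB1R was at 39.9 to 46.0 in the wild type libraries and 1.96 to 5.77 in the mutant libraries, CAB2R was at 4.09 to 8.18 and 3.91 to 7.84, and DL was not analysed here. All 4 markers of dividing cells (PCNA, MCM4, CYCB2;2, CDKB2;1) were lower in plt345, with summed levels of 5053 to 5263 against 6827 to 6902 in wild type. All 5 markers of differentiated root (LSI1, LSI2, CESA4, CESA7, CESA9) were higher, with summed levels of 10706 to 10968 against 3893 to 3986. These shifts run beside every Aux/IAA result below, and their part in those results was not tested.

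Setting the mutant beside wild type asks which Aux/IAA transcripts differ in level between the 2 genotypes. Values are normalized counts. Log2 fold changes are given as plt345 relative to wild type, fitted by limma to log2(value + 1), with standard error (SE) and Benjamini-Hochberg adjusted p. A fold given for a named gene or a sum is the ratio of genotype means, and counts of 2-fold changes use the fit. Aux/IAA transcripts moved in both directions. Of the 27 tested members, 12 were higher in plt345, 8 were lower and 7 did not pass an adjusted p of 0.05. Among all tested genes 34.0% were higher and 34.0% lower, 68.0% together, so the family's 44.4%, 29.6% and 74.1% lay near the background. The members' median log2 fold change was 0.19, beside -0.01 over all tested genes, and their range ran from -1.50 to 1.82. The median size of the change, whatever its sign, was 0.38 for the members and 0.32 for all tested genes. At least 2-fold changes were found for 2 members upward and 1 downward, or 7.41% and 3.7% of those tested, against 13.8% and 2.97% of all tested genes. Scaled by library totals instead of the deposited size factors, 15 members were higher and 7 lower, 68.2% of the called members upward against 60.0%. Over all tested genes the same rescaling moved the upward share of calls from 50.1% to 60.9%.

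**Figure D1:**
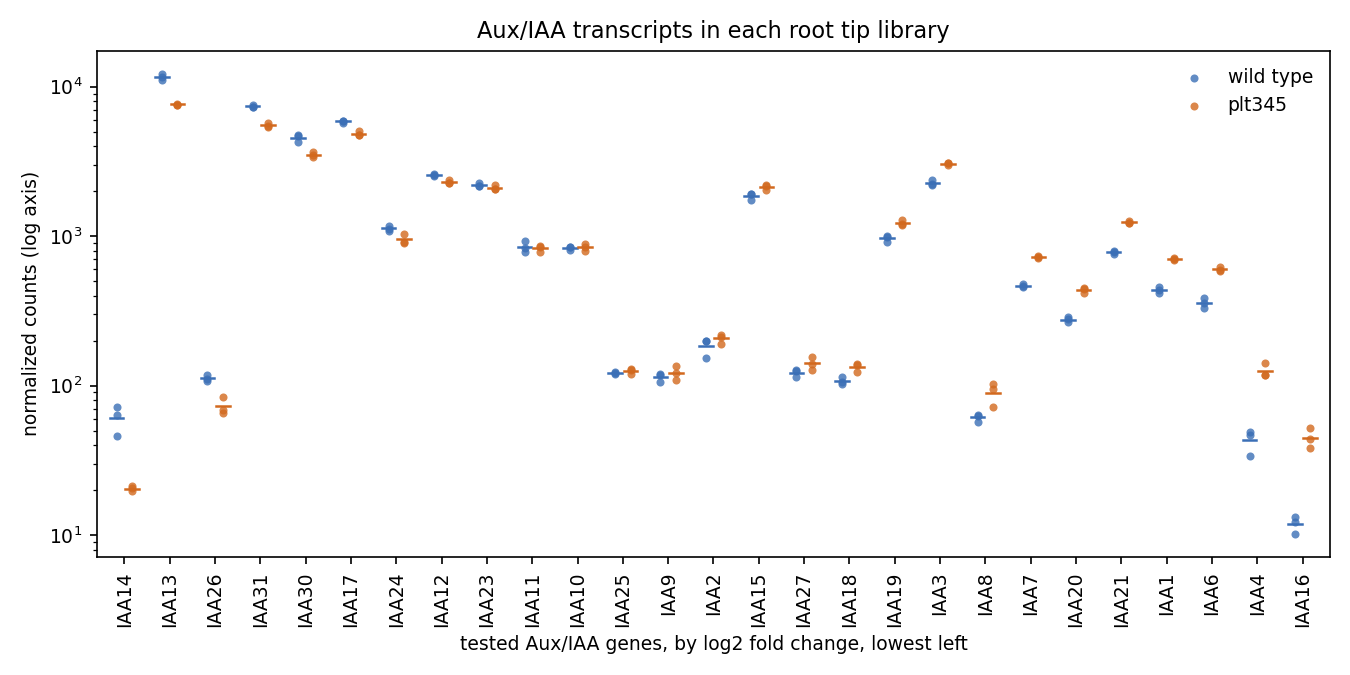
Normalized counts (log axis) of the 27 tested Aux/IAA genes in each of the 3 wild type and 3 plt345 libraries, ordered by log2 fold change, with short lines at the means. Points of the 2 genotypes lie apart for IAA13, IAA14, IAA4 and IAA16, and they overlap for IAA10, IAA11 and IAA23.

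Members with a described role in rice roots were examined first. IAA13 (LOC_Os03g53150), whose dominant mutation reduces lateral root formation, fell in plt345. It was at 11167, 12210 and 11627 in the wild type libraries and at 7670, 7600 and 7550 in the plt345 libraries. Every mutant library lay well below every wild type library, a 1.53-fold decrease (log2 fold change -0.62, SE 0.03, adjusted p = 1.91e-15 in limma). Its wild type libraries spread more widely than its mutant libraries, with SDs of 523 and 60.1.

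IAA11 (LOC_Os03g43400), in which a dominant mutation also blocks lateral root development, did not pass the threshold. Its values were 836.9, 927.7 and 782.7 in wild type and 854.1, 842.4 and 785.6 in plt345, and the genotypes overlapped. The log2 fold change was -0.03 with a 95% interval from -0.15 to 0.08 (limma adjusted p = 0.59). Scaling by library totals reversed the sign, to 0.05.

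IAA23 (LOC_Os06g39590), needed to maintain the quiescent centre after embryogenesis, was at 2266, 2157 and 2181 in wild type and at 2189, 2063 and 2060 in plt345. The highest mutant library lay above 2 of the 3 wild type libraries, and the change did not pass (log2 fold change -0.07, 95% interval -0.14 to 0.01, limma adjusted p = 0.116). Leaving out plt345 replicate 1 made it pass (-0.09, adjusted p = 0.0421), and scaling by library totals gave 0.02.

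A stabilised rice protein named IAA3 is known to disturb gravitropism and crown root formation. The locus numbered IAA3 here (LOC_Os01g13030) was higher in plt345, and whether it encodes that protein was not checked. The wild type libraries held 2240, 2364 and 2198 and the plt345 libraries 2972, 3071 and 3080, with a clear gap between the genotypes. The rise was 1.34-fold (log2 fold change 0.42, SE 0.04, limma adjusted p = 7.17e-11). A rice gene named IAA1 is known to lower the response of roots to auxin when overexpressed. IAA13 is also called IAA1, and which locus that work used was not checked. The locus numbered IAA1 here (LOC_Os01g08320) rose 1.61-fold (log2 fold change 0.69, SE 0.05, limma adjusted p = 3e-11). It went from 438.3, 454.1 and 415.4 to 703.0, 719.1 and 688.5. Here too no mutant library came near a wild type library.

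IAA9 (LOC_Os02g56120), whose overexpression affects root number and gravitropism, did not pass. Its mean was 114.0 ± 7.52 for wild type and 122.3 ± 12.9 for the mutant (SD, n = 3), with overlapping libraries and a 95% interval of the log2 fold change from -0.14 to 0.34. IAA26 (LOC_Os09g35870), a repressor linked to the inhibition of root growth by ethylene, fell 1.54-fold. Its values were 107.8, 117.6 and 110.5 in wild type and 65.7, 84.1 and 68.3 in plt345, with no overlap (log2 fold change -0.62, SE 0.13, limma adjusted p = 0.000205). Fitted decreases of IAA13 and IAA26 were the same to 2 decimals, with 57725 reads behind the first and 553 behind the second.

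The remaining decreases included 3 more of the members with many reads. IAA31 (LOC_Os12g40900) fell 1.34-fold, from 7330, 7272 and 7522 to 5433, 5404 and 5677 (log2 fold change -0.42, SE 0.03, limma adjusted p = 2.56e-12). IAA30 (LOC_Os12g40890) fell 1.30-fold, from 4674, 4282 and 4746 to 3388, 3636 and 3489 (log2 fold change -0.38, SE 0.04, limma adjusted p = 1.32e-09). IAA17 (LOC_Os05g14180) fell 1.21-fold, from 5750, 5917 and 5923 to 4775, 5018 and 4752 (log2 fold change -0.27, SE 0.03, limma adjusted p = 1.55e-08). For each of these 3 genes all mutant libraries lay below all wild type libraries.

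Smaller decreases were those of IAA12 and IAA24. IAA12 (LOC_Os03g43410), a partner of ARF17 in the control of leaf angle, fell 1.11-fold from 2573 ± 44.8 to 2309 ± 64.6 (log2 fold change -0.16, limma adjusted p = 0.000282). Scaling by library totals ended this call (log2 fold change -0.07, limma adjusted p = 0.0804). IAA24 (LOC_Os07g08460) fell 1.19-fold, from 1128 ± 45.3 to 951.3 ± 67.3 (log2 fold change -0.25, limma adjusted p = 9.52e-05).

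The widest decrease of the family belonged to IAA14 (LOC_Os03g58350), a member with few reads. It was at 72.2, 63.4 and 46.0 in the wild type libraries and at 20.6, 19.6 and 21.2 in the plt345 libraries, 178 reads against 63. Wild type varied, but its lowest library still exceeded the highest mutant library by more than the mutant libraries differed. The decrease was 2.96-fold (log2 fold change -1.50, SE 0.21, adjusted p = 6.24e-07 in limma).

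The widest increases were also those of members with few reads. IAA16 (LOC_Os05g09480) rose 3.76-fold, from 13.2, 10.2 and 12.3 to 38.2, 44.0 and 51.9, or from 35 to 138 reads (log2 fold change 1.82, SE 0.24, limma adjusted p = 2.76e-07). IAA4 (LOC_Os01g18360), which makes plants less sensitive to auxin when overexpressed, rose 2.90-fold, from 46.8, 33.8 and 49.1 to 117.7, 117.4 and 141.3 (log2 fold change 1.53, SE 0.16, limma adjusted p = 3.89e-09). In both genes the lowest mutant library was more than double the highest wild type library. The pseudocount of 1 understates such changes, and for IAA16 the ratio of means was wider than its fitted fold change.

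A group of 5 members rose by similar factors, from 1.55-fold to 1.68-fold. IAA6 (LOC_Os01g53880), known for its part in drought tolerance and tiller outgrowth, went from 332.5, 388.7 and 355.0 to 594.2, 624.2 and 586.6 (log2 fold change 0.75, SE 0.06, limma adjusted p = 9.86e-11). IAA21 (LOC_Os06g22870) went from 765.7, 788.6 and 799.0 to 1228, 1263 and 1235 (log2 fold change 0.66, SE 0.04, limma adjusted p = 5.52e-13). IAA20 (LOC_Os06g07040) went from 286.8, 264.9 and 278.3 to 415.8, 449.1 and 440.4 (log2 fold change 0.65, SE 0.07, limma adjusted p = 3.87e-09). Overexpression of a gene named IAA20 raises tolerance of drought and salt. IAA4 is also called IAA20, and which locus that work used was not checked. IAA7 (LOC_Os02g13520) and IAA1, given above, complete the group. IAA7 went from 479.0, 464.3 and 458.3 to 738.3, 725.0 and 710.6 (log2 fold change 0.63, SE 0.05, limma adjusted p = 6.08e-11). Within each of these genes the genotypes were separated by a gap wider than the range of either. The 5 were put together after their values were seen.

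Other increases were smaller or less certain. IAA8 (LOC_Os02g49160) rose 1.46-fold, from 61.3 ± 3.53 to 89.5 ± 15.9 (log2 fold change 0.53, limma adjusted p = 0.0037), and its mutant libraries ranged from 71.6 to 101.9. IAA19 (LOC_Os05g48590) rose 1.27-fold, from 966.9 ± 49.2 to 1228 ± 44.1 (log2 fold change 0.35, limma adjusted p = 3.02e-07). IAA15 (LOC_Os05g08570) rose 1.15-fold, from 1860 ± 87.0 to 2141 ± 87.7 (log2 fold change 0.20, limma adjusted p = 8.7e-05). IAA18 (LOC_Os05g44810), whose overexpression also raises tolerance of drought and salt, went from 107.5 ± 6.58 to 134.3 ± 8.76, a 1.25-fold rise (log2 fold change 0.32, limma adjusted p = 0.0151). The call of IAA18 was lost in DESeq2 and in the authors' own values (adjusted p = 0.089 in both). It was also lost in limma without wild type replicate 3 (log2 fold change 0.28, adjusted p = 0.0504) and without plt345 replicate 3 (0.29, adjusted p = 0.0598).

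**Figure D2:**
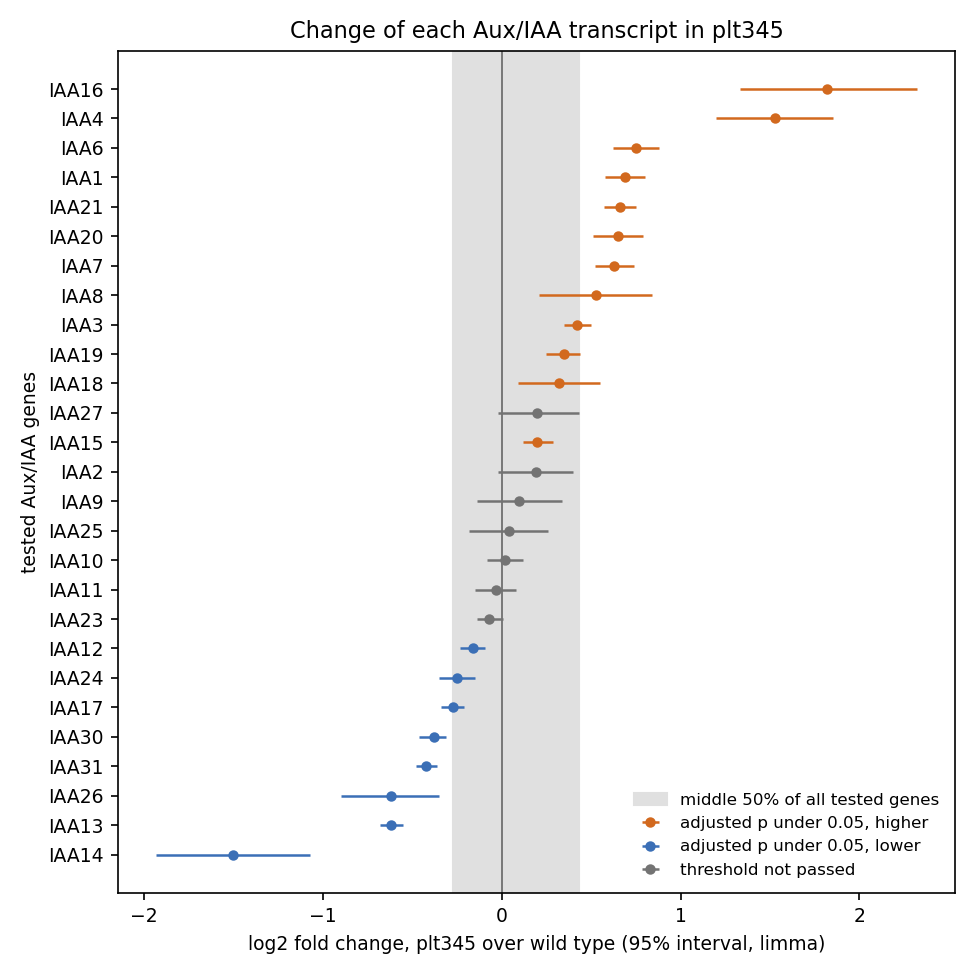
Change (log2 of plt345 relative to wild type) of each tested Aux/IAA gene, with its 95% interval from limma, and the middle 50% of all tested genes shaded (-0.27 to 0.43). Increases reach 1.82 for IAA16, decreases reach -1.50 for IAA14, and the 7 members in grey did not pass the threshold.

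The 7 members that did not pass were IAA2, IAA9, IAA10, IAA11, IAA23, IAA25 and IAA27. IAA10 (LOC_Os02g57250), bound by a capsid protein of rice dwarf virus, was at 843.0, 842.8 and 811.3 in wild type and 851.1, 892.3 and 796.2 in plt345, with a 95% interval of the log2 fold change from -0.08 to 0.12. Its point estimate changed sign when plt345 replicate 2 was left out (0.02 to -0.02), and with library totals it passed narrowly (0.11, adjusted p = 0.0498). IAA25 (LOC_Os08g01780) had an interval from -0.18 to 0.26. The depth behind IAA9 and IAA25, 712 and 743 reads, leaves room for an increase of the size called for IAA15.

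IAA2 (LOC_Os01g09450) and IAA27 (LOC_Os11g11410) lay between. IAA2 was at 198.3, 152.4 and 198.5 in wild type and at 191.2, 218.2 and 212.5 in plt345, with a low second wild type library and overlap between genotypes (log2 fold change 0.19, 95% interval -0.02 to 0.40). IAA27 was at 113.9, 124.8 and 126.9 and at 127.5, 154.6 and 140.4, with no overlap but a lowest mutant library just above the highest of wild type (0.20, 95% interval -0.02 to 0.43). Both passed with library totals (0.27, adjusted p = 0.0198, and 0.29, adjusted p = 0.0233). With IAA27 included, 13 members were higher in every mutant library than in any wild type library, or 48.1% of those tested, and 8 were lower, or 29.6%. Among all tested genes these shares were 35.6% and 35.5%. IAA22 was counted 3 times in wild type and 4 times in the mutant, summed over libraries, which is too few to compare.

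Neighbouring members were compared within each library. IAA11 and IAA12 lie next to each other on chromosome 3, and IAA30 and IAA31 on chromosome 12, with no gene listed between them in the reference table. The ratio of IAA31 to IAA30 was 1.57, 1.70 and 1.58 in the wild type libraries and 1.60, 1.49 and 1.63 in the plt345 libraries. These ratios overlapped, so the decreases of IAA30 and IAA31 did not differ beyond the spread (difference of log2 ratios -0.04, exact two-sided permutation p = 0.6, n = 3). The ratio of IAA12 to IAA11 was 3.1, 2.74 and 3.26 in wild type and 2.79, 2.69 and 2.90 in plt345 (difference -0.12, exact two-sided permutation p = 0.3, n = 3). IAA12 passed the threshold and IAA11 did not, yet a difference between them was not detected. The smallest p this exact permutation test allows with 3 libraries a genotype is 0.1. Neighbouring members can resemble each other in sequence, and whether the counting split reads among them was not tested.

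Reads of the family as a whole were fewer in plt345. Summed over the 28 members, normalized counts were 44998, 45612 and 45625 in wild type and 39738, 39941 and 39428 in plt345, a 1.14-fold decrease (1.08-fold with library totals). The sum took between 0.208% and 0.212% of all normalized counts in wild type and between 0.195% and 0.197% in plt345. The 4 members with the most reads, IAA13, IAA17, IAA30 and IAA31, were grouped after their values were seen. Together they went down 1.37-fold, from 29473 ± 483 to 21464 ± 196 (SD, n = 3). The other 24 together went up 1.14-fold, from 15939 ± 135 to 18239 ± 259. With library totals the fall was 1.29-fold and the rise 1.22-fold. Not all of the other 24 rose, since IAA12, IAA14, IAA24 and IAA26 were called lower. The share of IAA13, IAA17, IAA30 and IAA31 in the family's counts went from between 64.3% and 65.4% to between 53.5% and 54.4%. That of IAA13 alone went from between 24.8% and 26.8% to between 19.0% and 19.3%. A sum of counts weights members by transcript length as well as by abundance, and no test was made on it.

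**Figure D3:**
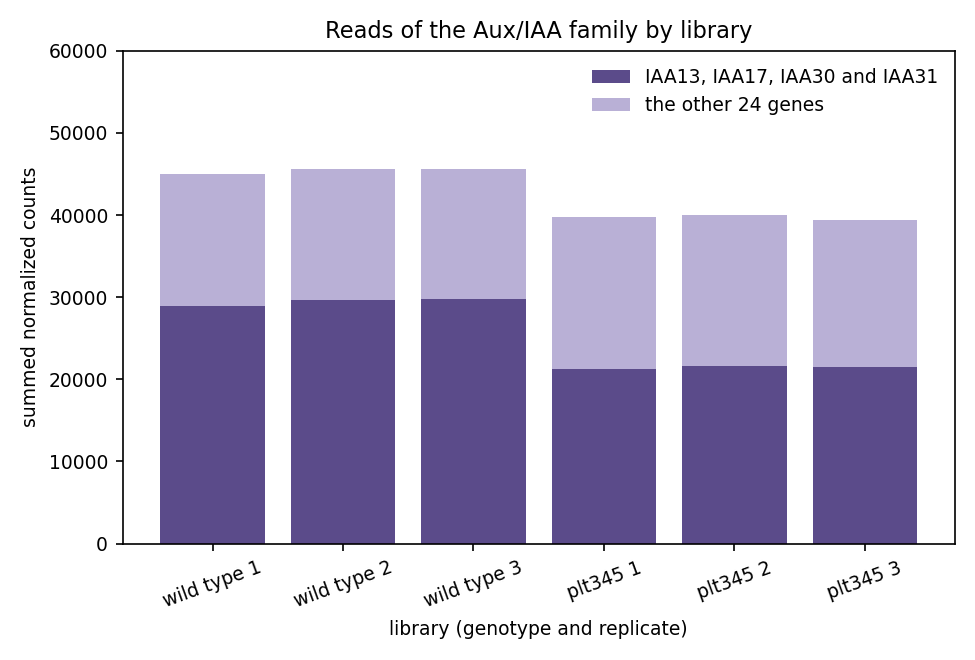
Normalized counts summed over the 28 Aux/IAA genes in each library, with IAA13, IAA17, IAA30 and IAA31 in dark and the other 24 genes in light. The dark part falls from about 29473 to 21464 and the light part rises from about 15939 to 18239 in plt345.

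The split between directions was compared with that of genes of similar read number. Of 11 members that averaged 1000 or more normalized counts, 6 were lower and 4 higher. Of 11 members that averaged 100 or more and less than that, 5 were higher and 0 lower, and of 5 members with lower means 3 were higher and 2 lower. Among all tested genes in the class of 1000 or more, 56.3% were lower and 23.5% higher, so the family's 54.5% and 36.4% in that class lay near the background. In the middle class the background was 34.0% higher and 35.1% lower, beside 45.5% and 0% of the members. In the lowest class it was 41.7% higher and 16.0% lower, beside 60.0% and 40.0% of the members. From the highest class to the lowest, the lower share fell steadily for all tested genes but not for the members. The members' shares rest on classes of 11, 11 and 5 genes, where single genes move them. Spearman's rho between mean level and log2 fold change was -0.38 across the 27 tested members and -0.24 across all tested genes, a description over genes that share the same 6 libraries and are not independent replicates.

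**Figure D4:**
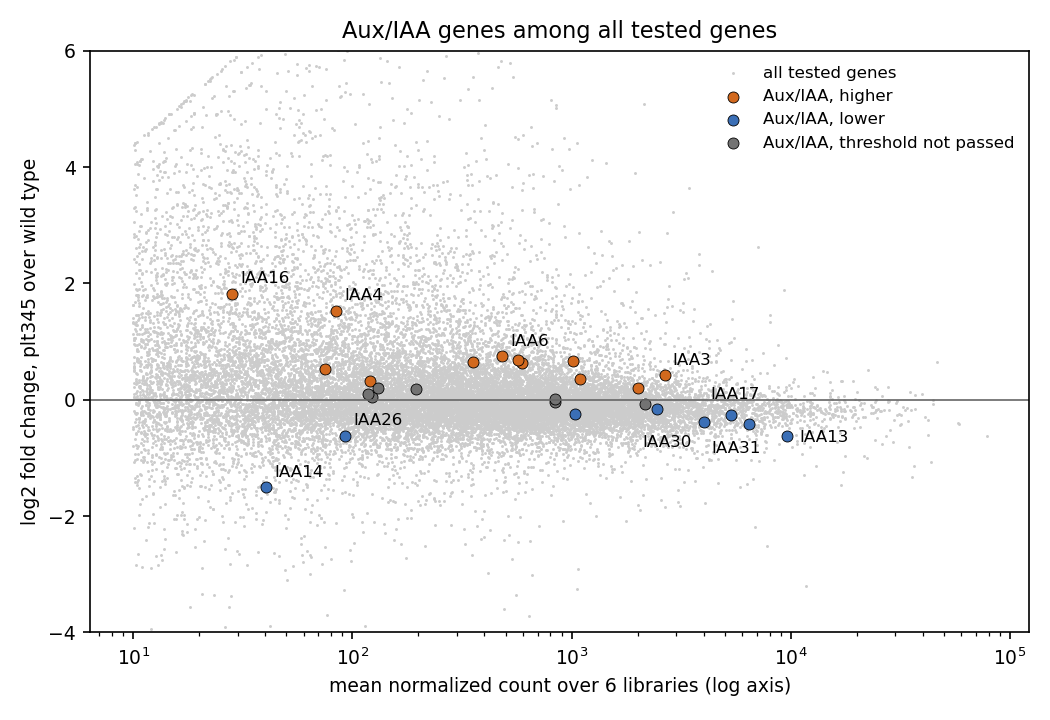
Change (log2 of plt345 relative to wild type) against the mean normalized count (log axis) for all tested genes in grey and for the 27 tested Aux/IAA genes in colour. IAA13, IAA31, IAA17 and IAA30 lie below 0 at the right, IAA16 and IAA4 highest at the left, and 113 of all tested genes lie outside the vertical range.

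The partners of Aux/IAA proteins and another family of fast auxin response genes were read from the same fit. Of 22 tested ARF genes with a checked symbol, 10 were higher in plt345, 9 lower and 3 short of the threshold, around a median of 0.03 on the log2 scale. These are 45.5% and 40.9%, beside 34.0% and 34.0% of all tested genes. Scaled by library totals, 11 were higher and 7 lower. ARF11 and ARF20 were left out because their symbols were not found, so the widest change among all ARF genes is not given. ARF10 (LOC_Os04g43910) rose 3.55-fold, from 214.4 ± 11.8 to 762.0 ± 18.7, and ARF15 (LOC_Os05g48870), also named ETTIN1 in the reference table, rose 2.20-fold, from 464.1 ± 25.6 to 1021 ± 39.1. ARF12 (LOC_Os04g57610) and ARF21 (LOC_Os08g40900), both of the activating class that Aux/IAA proteins hold in check, went in opposite directions. ARF12 fell 1.67-fold from 2106 ± 50.4 to 1257 ± 28.0, and ARF21 rose 1.45-fold from 1205 ± 29.8 to 1745 ± 42.7.

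Of 2 corepressor genes of the TOPLESS type with a checked symbol, 1 was higher and 1 lower, the second by a call that depended on the scaling. TPR1 (LOC_Os01g15020) rose 1.32-fold from 1261 ± 16.0 to 1662 ± 23.2, and TPR3 (LOC_Os03g14980) fell 1.11-fold from 7634 ± 50.9 to 6885 ± 227. Scaled by library totals, TPR3 was at a log2 fold change of -0.06 and did not pass (limma adjusted p = 0.0698). Of 8 tested GH3 genes with a checked symbol, whose enzymes join auxin or jasmonate to amino acids, 6 were higher and 1 lower, around a median of 0.63 on the log2 scale. These are 75% and 12.5%, beside the same 34.0% and 34.0%. GH3.2, GH3.4 and GH3.8 rose by log2 fold changes of 1.53, 2.34 and 0.90, and GH3.11 (LOC_Os07g47490) fell 1.45-fold from 845.3 ± 30.5 to 581.3 ± 23.8. The Aux/IAA median of 0.19 lay between those of the ARF and GH3 genes, and the difference between these lists was not tested.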

How the data were processed

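RNA was measured in 6 libraries. They were made from TRIzol-extracted total RNA and read from both ends on the BGISEQ-500 platform, per the labels' protocols. HISAT2, featureCounts (2.0.0) and DESeq2 (version 1.38.3) appear in the submitters' processing notes. Build, strand setting and handling of shared reads are not stated in any source used here. The authors deposited 1 table whose library columns hold counts divided by a size factor, a signal that is never negative, per the file headers and the values. In each library 100% of them were a whole number of times the worth of 1 read (tolerance 0.01), which gave back the reads. Beside these stand the authors' own log2 fold change with standard error, a Wald score, and p-values, adjusted ones included (1789 genes have none).

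The test was limma 3.58.1 (eBayes with trend, two-sided, no block) in R 4.3.3, on log2(value + 1) of genes that averaged 10 or more, with Benjamini-Hochberg adjustment over all 23166 tested genes and a threshold of 0.05. Alternatives used edgeR 4.0.16 and DESeq2 1.42.0 on the recovered reads, the authors' table, other pseudocounts, filters and scaling, a replicate block and each library left out. The biological coefficient of variation was 2.72% (edgeR), a spread so low that small fold changes pass. Pairs of libraries of one genotype differed by more than sampling noise (chi-square per gene 1.42 to 2.08), so none was treated as a repeat. The fit was tested on simulated data.

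The members and lists were chosen with earlier results of these data known. All members are named, and from each other list up to 4 genes with the smallest adjusted p. The table names genes by locus, and the reference table (assembly ASM3414082v1) by symbol. A pair was kept where the reference places a gene so named on that chromosome, in the order of locus numbers. This held for 28 of 31 members (not IAA22, IAA27 and IAA28), 23 of 25 ARF genes, 9 of 13 GH3 genes and 2 of 3 corepressor genes. No receptor symbol was found, so the TIR1/AFB loci are not reported, and the PLT names rest on nomenclature. Some synonyms cross (IAA13 is also called IAA1, IAA4 also IAA20), so the locus identifies the gene. Roles of members are given by symbol, and whether the work behind each used the same locus was not checked. No sequence was used here.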

Additional observations from a re-analysis of the deposited data

How the results depend on the processing

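Of the 27 tested members, 20 kept their direction and their side of the threshold in each of the 15 alternatives run for them, and IAA2, IAA10, IAA11, IAA12, IAA18, IAA23 and IAA27 did not. DESeq2 on the recovered reads and the authors' own values were nearly the same for the members, so they are not separate checks. Counts of members stayed between 11 and 15 higher and between 7 and 9 lower. Signs were reversed for IAA11 with library totals (0.05), without wild type replicate 2 (0.03) and without plt345 replicate 3 (0.00), for IAA23 with library totals (0.02), and for IAA10 without plt345 replicate 2 (-0.02). With each library left out in turn, IAA10 ranged from -0.02 to 0.07 and IAA11 from -0.09 to 0.03. None of these 3 members passed in the main comparison, and the cause was not tested. With a mean of at least 50 required, IAA14 and IAA16 were not tested, so at least 2-fold changes were 1 higher and 0 lower. With no filter, 2 GH3 genes were lower in place of 1. Same-numbered libraries did not deviate together (correlations of 0.024, 0.019 and -0.001), so the numbers were not taken as pairs, and the replicate block gave 12 members higher and 8 lower, the same as without it. Over all genes the block gave 7941 higher and 7972 lower against 7886 and 7865. Alternatives for the lists, for 2-fold changes and for neighbours were added after seeing the data. Depth limits the 5 members under 100 normalized counts most, which had the widest intervals.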

Other observations

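Spread within a genotype was set against counting error for each tested member. Chi-square per degree of freedom, over 4 degrees of freedom, had a median of 1.55, where counting error alone gives values near 1. It was highest for IAA13 (11.7) and IAA30 (8.93), among the members with the most reads, and above 3 for 7 of 27 members. For IAA7 and IAA25 it was 0.255 and 0.114.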
